A study of Mus musculus with 10 samples.

Results

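The 10 genes described here code for the enzymes, scaffolds and membrane-bending proteins that retrieve synaptic vesicles after release: Synj1, Itsn1, Synj2, Itsn2, Dnm1, Dnm3, Sh3gl2, Amph, Bin1 and Picalm. They were taken from the deposited table of 43629 Ensembl genes by matching the gene symbols to their IDs in the GRCm38 annotation, and all 10 passed the filter on low counts that left 17237 genes for testing. Synj1 and Itsn1 lie in the segment of chromosome 16 that is duplicated in Dp1Tyb mice and are present in 3 copies there, whereas the other 8 genes lie elsewhere and have 2 copies in both genotypes. Expression was measured by RNA sequencing (RNAseq) of the whole hippocampus from 5 Dp1Tyb and 5 wild-type (WT) mice. The Dp1Tyb mice carried the duplication Dp(16Lipi-Zbtb21)1TybEmcf, which runs from Lipi to Zbtb21, and the WT mice did not. All mice were male littermates, with the strain given as C57BL/6J.129P2 and the age as 18 weeks in the labels, from a line backcrossed to C57BL/6JNimr. Each library came from 1 mouse, and the measurements of whole tissue do not separate cell types.

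After a synaptic vesicle fuses, its membrane is collected by adaptors and clathrin, bent by crescent-shaped proteins such as amphiphysin and endophilin, cut off by dynamin, and stripped of its coat once synaptojanin has removed phosphates from the membrane lipid that holds the adaptors. Intersectin is a multidomain scaffold that brings dynamin, synaptojanin and the actin machinery to the same site. Synaptojanin 1 and intersectin 1 have been studied in Down syndrome because both lie on the human chromosome that is trisomic in this condition.

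Total counts ranged from 18227684 to 43692270 per library. The rarest member, Itsn2, had between 1478 and 3174 counts in every library, so counting error was small for all members. The 10 genes together took 0.339% to 0.357% of the counts in the WT libraries and 0.392% to 0.410% in the Dp1Tyb libraries. Markers of neurons and of the hippocampal fields were well above 0 in every library. The choroid plexus markers, which reflect how much of this neighbouring tissue was dissected, varied widely: their mean log2 level was 0.86 in Dp1Tyb replicate 1 and 1.02 in Dp1Tyb replicate 4, against 2.76 to 6.15 in the other 8 libraries. No 2 libraries were alike within sampling noise.

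Synj1 and Itsn1 were both higher in Dp1Tyb than in WT hippocampus, and of the 2-copy genes Amph alone passed the test, by 1.10-fold and in a call that was lost when most single libraries were left out. Differential expression was tested with edgeR across all 17237 genes, and an adjusted p under 0.05 was taken as differentially expressed. By this rule 3 of the 10 members were called, all 3 higher in Dp1Tyb, and 0 were lower. Of all tested genes, 1.11% were called, 0.870% higher and 0.238% lower in Dp1Tyb. The log2 fold changes of the other 7 members ran from −0.05 to 0.18, and 2 of those 7 had an unadjusted p under 0.05. In 4 of the 10 genes (Synj1, Itsn1, Sh3gl2 and Amph) every Dp1Tyb library lay above every WT library, against 2.56% of all tested genes, or 3.68% when either direction is counted. Among the 8 genes with 2 copies, 2 were higher and 0 lower without overlap, against 2.16% higher and 1.13% lower of the tested genes outside the duplicated segment. All 8 are abundant, and of the 4558 genes outside the segment with a mean of at least 50 CPM, 4.63% were higher without overlap.

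**Figure D1:**
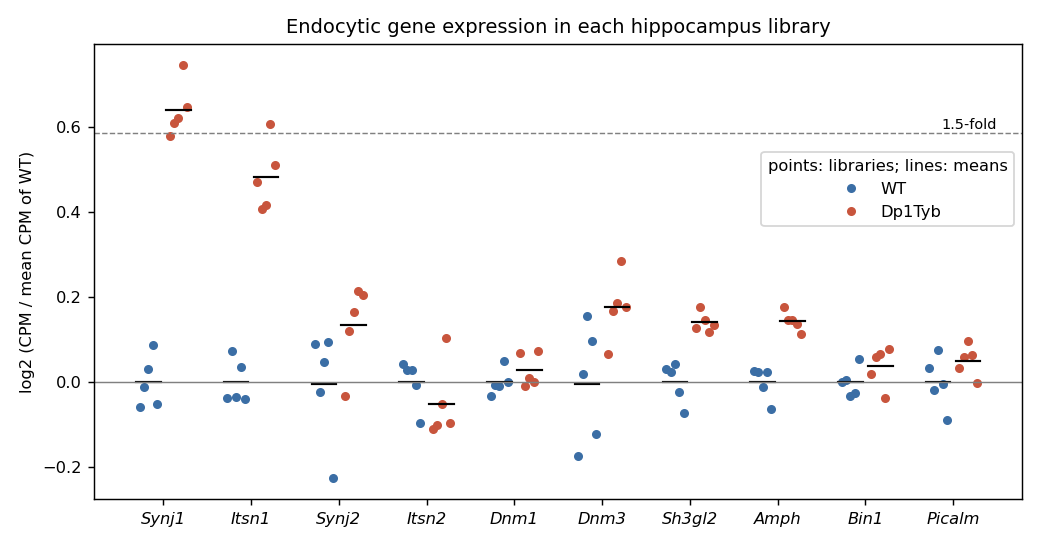
Expression of the 10 endocytic genes in each library, as the log2 ratio of the counts scaled to library size (CPM) to the WT mean of the gene. Points are libraries (blue, 5 WT; red, 5 Dp1Tyb), black lines are means, and the dashed line marks 1.5-fold. The red points of Synj1 and Itsn1 are separated from the blue by a wide gap, those of Sh3gl2 and Amph by a narrow one, and the groups overlap in the other 6 genes.

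Synj1 codes for synaptojanin 1, the main phosphoinositide phosphatase of nerve terminals. Its gene (ENSMUSG00000022973) lies on the minus strand of chromosome 16, at positions 90936092 to 91011308 of GRCm38. Expression in the 5 WT libraries was 571, 591, 607, 632 and 574 CPM, and in the 5 Dp1Tyb libraries 888, 907, 915, 998 and 931 CPM. The lowest Dp1Tyb library was thus well above the highest WT library, and Dp1Tyb replicate 4 was the highest of all. The WT mean was 595 ± 25.3 CPM and the Dp1Tyb mean 928 ± 42.2 CPM (SD, 5 mice each). The difference was 0.64 ± 0.0444 on the log2 scale (SE), with an edgeR adjusted p = 2.68e-06. The fold change was 1.56, with a 95% interval from 1.46 to 1.67 that includes the 1.5-fold ratio of gene copies.

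Itsn1 codes for intersectin 1, the scaffold that links coat, fission and actin proteins. The gene (ENSMUSG00000022957) lies 0.718 Mb distal to the Synj1 start, on the plus strand at positions 91729281 to 91920597. Its expression was 199, 215, 199.9, 209.7 and 199 CPM in the WT libraries and 284, 272, 273, 312 and 291 CPM in the Dp1Tyb libraries. Again the genotypes did not overlap and Dp1Tyb replicate 4 was the highest. The WT mean was 205 ± 7.44 CPM and the Dp1Tyb mean 286 ± 16.4 CPM (SD, 5 mice each), which differ by 0.48 ± 0.0429 on the log2 scale (SE), with an edgeR adjusted p = 2.42e-05. The fold change was 1.40, with a 95% interval from 1.31 to 1.49 whose upper end falls just below 1.5. A neuronal long form and a shorter form of intersectin 1 are known, and counts per gene cannot tell them apart.

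Within each library the ratio of Synj1 to Itsn1 counts was also higher in Dp1Tyb, with a log2 ratio of 1.54 ± 0.0606 in WT and 1.70 ± 0.0430 in Dp1Tyb (SD, n = 5). Every Dp1Tyb library was above every WT library in this ratio, so the transcript of Synj1 had risen by slightly more than that of Itsn1. Among the 114 tested genes of the duplicated segment, whose median log2 fold change was 0.53 with quartiles of 0.34 and 0.64, Synj1 ranked 28 and Itsn1 68 from the top. The pair ranked 4 and 5 by counts among these 114 genes. Of the 114 genes, 59.6% were called.

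Both genes lie whole inside the segment, with the sequence in front of their starts, so the extra copy carries the start region with it. The stretches from 250 to 91 bases before the RefSeq start of each gene are printed below (RefSeq, GRCm38.p6, read 5′ to 3′ on the strand of the gene), because these are the 2 start regions whose copy number differs between the genotypes. The stretches end where the GENCODE transcripts of the gene itself begin or earlier. The Synj1 stretch lies within the non-coding gene 4930404I05Rik on the other strand. They lie at chr16:91011399-91011558 on the minus strand for Synj1 and chr16:91729121-91729280 on the plus strand for Itsn1. Capitals mark the GC box GGGCGG or its reverse complement CCGCCC.
Synj1: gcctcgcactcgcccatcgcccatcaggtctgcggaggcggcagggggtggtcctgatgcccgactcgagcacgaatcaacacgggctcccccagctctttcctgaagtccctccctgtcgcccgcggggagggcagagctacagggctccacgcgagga
Itsn1: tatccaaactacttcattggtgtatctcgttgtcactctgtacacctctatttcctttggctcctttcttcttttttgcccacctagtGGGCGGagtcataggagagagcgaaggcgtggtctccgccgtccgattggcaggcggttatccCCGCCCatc
The Synj1 stretch was 68.8% G or C with 14 CpG pairs and the Itsn1 stretch 52.5% with 9, against medians of 51.2% and 3 over the same stretch of 32851 RefSeq promoters. The GC box was found on either strand in 18.1% of those promoters. It occurred once on each strand in the Itsn1 stretch, and these letters were not in the Synj1 stretch. Whether the sequence bears on expression was not tested.

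The genes next to Synj1 and Itsn1 were examined by taking the nearest 3 tested genes on each side. Around Synj1, the protein-coding genes Urb1 (0.28 ± 0.0584 SE), Eva1c (0.82 ± 0.159 SE), Cfap298 (0.54 ± 0.0842 SE) and Paxbp1 (0.60 ± 0.0362 SE) were called higher in Dp1Tyb, with edgeR adjusted p-values of 0.0338, 0.0252, 0.00518 and 7.47e-07. The non-coding genes 4930404I05Rik, which starts at the Synj1 start on the other strand, and Gm15965, which lies within Synj1 on the other strand, had between 1.01 and 2.36 CPM on average and were not called, with log2 fold changes of 0.36 ± 0.197 SE and −0.07 ± 0.175 SE (edgeR, adjusted p = 0.427 and 0.888). Around Itsn1, Donson, Cryzl1 and Atp5o were called, with log2 fold changes of 0.61 ± 0.0833 SE, 0.53 ± 0.0480 SE and 0.57 ± 0.0827 SE (edgeR, adjusted p = 0.00147, 2.61e-05 and 0.00266). Gm10785, Mrps6 and the myo-inositol transporter gene Slc5a3 had log2 fold changes of 0.38 ± 0.173 SE, 0.51 ± 0.139 SE and 0.36 ± 0.0927 SE without passing the test (edgeR, adjusted p = 0.342, 0.106 and 0.0906). In all, 7 of the 12 neighbours were called, close to the 59.6% called in the whole segment, where all 68 called genes were higher in Dp1Tyb.

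**Figure D2:**
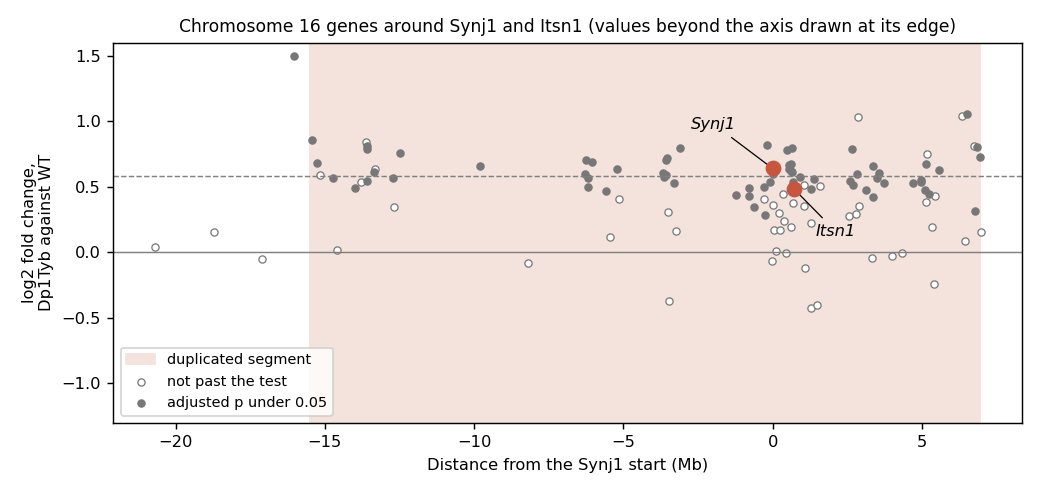
Log2 fold change (Dp1Tyb against WT) of tested genes on chromosome 16 against the distance of their start from the Synj1 start in Mb; filled points have an adjusted p under 0.05, the shaded band is the duplicated segment and the dashed line marks 1.5-fold. Synj1 (0.64) and Itsn1 (0.48), in red, lie close together inside the band, 15.5 Mb from its proximal and 6.95 Mb from its distal edge as measured from Synj1.

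To compare the levels of the members with each other, counts were divided by the exon length of each gene (RPKM, which is CPM per kilobase of exon). Dnm1, the neuronal dynamin that pinches vesicles off, was by far the most abundant in WT hippocampus, at 257 ± 5.53 RPKM (SD, n = 5), 3.49 times the level of Synj1. A middle group followed, with Synj1 at 73.6 ± 3.13, Bin1 at 68.6 ± 1.61, Amph at 60.7 ± 1.58 and Sh3gl2 at 49.1 ± 1.61 RPKM. Of these neighbours in the order, Synj1 and Bin1 had overlapping ranges over the WT libraries and the others did not. A low group held Synj2 at 11.6 ± 1.02, Picalm at 9.61 ± 0.410, Itsn1 at 8.74 ± 0.318, Itsn2 at 5.79 ± 0.220 and Dnm3 at 5.03 ± 0.487 RPKM. Within it the ranges of Synj2 and Picalm overlapped, as did those of Picalm and Itsn1 and those of Itsn2 and Dnm3. The exon lengths of Itsn1 and Dnm3 were 23.4 and 24.5 kb, since all exons of every annotated transcript were counted, and such long exon sets lower the RPKM of a gene.

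In Dp1Tyb, Synj1 reached 115 ± 5.22 RPKM (SD, n = 5) and no longer overlapped Bin1, which was at 70.3 ± 2.30 RPKM. Its lowest Dp1Tyb library was at 109.8 RPKM and the highest Bin1 library at 72.4 RPKM. Itsn1 reached 12.2 ± 0.700 RPKM and moved from rank 8 to rank 7, above Picalm at 9.95 ± 0.252 RPKM. Dnm1 remained first at 262 ± 7.12 RPKM. The order of the lower genes depends on the division by exon length. By CPM, Itsn1 already ranked 6 in WT, above Picalm at rank 7, with Dnm3 at rank 8 and Synj2 at rank 9.

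**Figure D3:**
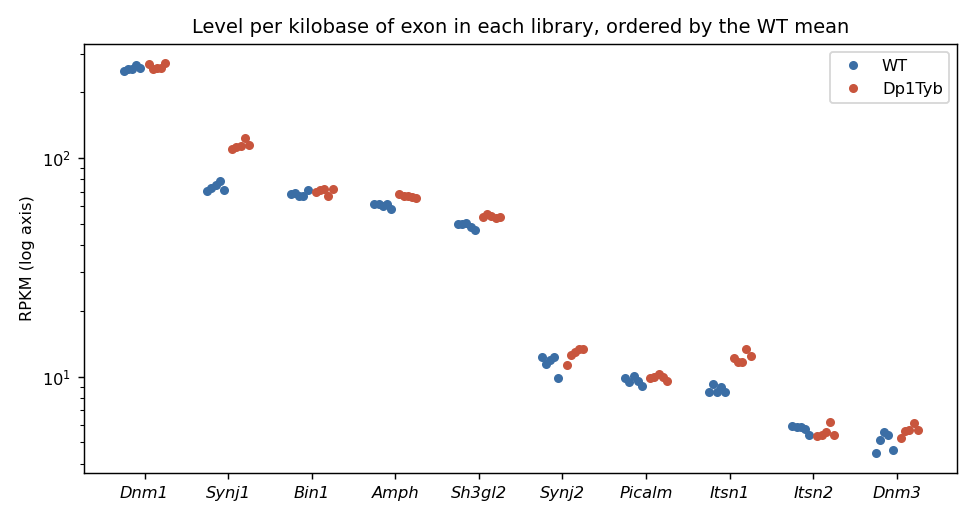
Level of the 10 genes per kilobase of exon in each library (RPKM, log axis), ordered by the WT mean; points are libraries (blue, WT; red, Dp1Tyb). Dnm1 stands alone at the top near 257 RPKM, a middle group lies between 46.6 and 78.2 RPKM in WT, and 5 genes lie at or below 13.4 RPKM in both genotypes.

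Each duplicated gene has a 2-copy paralog, Synj2 on chromosome 17 (ENSMUSG00000023805, positions 5941280 to 6044290 of GRCm38, plus strand) and Itsn2 on chromosome 12 (ENSMUSG00000020640, 4592638 to 4713962, plus strand). Synj2 codes for synaptojanin 2, a phosphatase found in many tissues, and its expression was 103, 94.8, 99.6, 103 and 82.4 CPM in WT and 94.3, 105, 108, 112 and 111 CPM in Dp1Tyb. The genotypes overlapped, and the log2 fold change was 0.13 ± 0.0636 SE (95% interval −0.003 to 0.27, edgeR adjusted p = 0.356). Itsn2, which codes for the broadly expressed intersectin 2, had 80.9, 80.1, 80.1, 78.2 and 73.5 CPM in WT and 72.8, 73.2, 75.8, 84.4 and 73.5 CPM in Dp1Tyb. Here Dp1Tyb replicate 4 was above all WT libraries while the other 4 Dp1Tyb libraries were within or below their range (log2 fold change −0.05 ± 0.0475 SE, 95% interval −0.15 to 0.05, edgeR adjusted p = 0.659). Neither paralog was called in either direction. Exons of Synj2 and Itsn2 overlap exons of other genes on the other strand over 3.56% (Serac1) and up to 10.96% (Gm48678) of their length, and the strand setting of the counting was not stated.

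The duplicated paralog already made up most of each pair in WT. By RPKM, Synj1 was 86.4% ± 0.930 of the Synj1 and Synj2 transcripts in WT and 90.0% ± 0.419 in Dp1Tyb (SD, n = 5). Itsn1 was 60.2% ± 1.09 of the Itsn1 and Itsn2 transcripts in WT and 68.6% ± 0.860 in Dp1Tyb. The Itsn1 share depended on the exon lengths: by CPM it was 72.3% in WT and 79.0% in Dp1Tyb. The Synj1 share by CPM was 86.1% and 89.7%. Neither share overlapped between the genotypes, and the 2 scales cannot differ in this because exon length is a constant factor. Such a share is another form of the paralog ratio. The ratio of Synj1 was higher without overlap against 77.6% of the tested genes outside the segment, and that of Itsn1 against 68.1%. Summed over both paralogs, the synaptojanin transcripts rose from 85.2 ± 3.74 to 127 ± 5.88 RPKM. The intersectin transcripts rose from 14.5 ± 0.431 to 17.8 ± 1.01 RPKM, 1.23-fold, or 1.28-fold by CPM. The 2-copy paralog held a larger share in the intersectin pair than in the synaptojanin pair.

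Among the membrane-bending proteins, Amph codes for amphiphysin, which binds dynamin, clathrin and synaptojanin at the neck of the forming vesicle. The gene (ENSMUSG00000021314) lies on chromosome 13 at positions 18948205 to 19150921 of GRCm38, on the plus strand. Its expression was 279, 279, 273, 279 and 263 CPM in the WT libraries and 310.4, 304, 304, 302 and 297 CPM in the Dp1Tyb libraries. The genotypes were separated by a gap of similar size to the spread within them. The WT mean was 275 ± 7.17 CPM and the Dp1Tyb mean 303 ± 4.83 CPM (SD, 5 mice each), a difference of 0.14 ± 0.0305 on the log2 scale (SE, fold change 1.10, 95% interval 1.05 to 1.16, edgeR adjusted p = 0.0402). When single libraries were left out in turn, Amph fell short of the threshold in 9 of 10 fits (edgeR adjusted p from 0.0483 to 0.105) and passed it only without Dp1Tyb replicate 5. The log2 fold change itself stayed between 0.13 and 0.15.

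Sh3gl2 codes for endophilin A, the main neuronal form, which recruits synaptojanin to the vesicle neck, and lies on chromosome 4 (ENSMUSG00000028488, 85205126 to 85639195, plus strand). It had 328, 327, 331, 316 and 305 CPM in WT and 351, 363, 356, 349 and 352 CPM in Dp1Tyb, again without overlap. Its log2 fold change of 0.14 ± 0.0328 SE was of the size seen for Amph but did not pass the threshold (fold change 1.10, 95% interval 1.05 to 1.16, edgeR adjusted p = 0.0618). With DESeq2, the tool of the study, it did (adjusted p = 0.00286, with 0.00286 to 0.160 over all alternatives), a test by which 2.16% of genes with an adjusted p were called higher in Dp1Tyb. Bin1, the broadly expressed relative of amphiphysin, lay between 276 and 293 CPM in WT and between 275 and 298 CPM in Dp1Tyb. Its fold change was 1.03, with a 95% interval from 0.98 to 1.08 (edgeR, adjusted p = 0.636).

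The dynamin genes Dnm1 on chromosome 2 (ENSMUSG00000026825, 32308471 to 32353338) and Dnm3 on chromosome 1 (ENSMUSG00000040265, 161982453 to 162478034) both lie on the minus strand, and neither was called. Dnm1 had 1318, 1343, 1341, 1397 and 1348 CPM in WT and 1414, 1341, 1357, 1349 and 1419 CPM in Dp1Tyb. The libraries of both genotypes were interleaved, and the 95% interval of the fold change, from 0.96 to 1.08, lies far from 1.5 (edgeR, adjusted p = 0.772). Dnm3, a dynamin found at synapses on both sides of the cleft, had 109, 125, 137, 131 and 113 CPM in WT and 129, 138, 139.8, 149.8 and 139 CPM in Dp1Tyb. The Dp1Tyb libraries tended to the upper end but overlapped WT replicates 3 and 4 (log2 fold change 0.18 ± 0.0621 SE, 95% interval 0.04 to 0.31, edgeR adjusted p = 0.224). Picalm codes for the clathrin adaptor that retrieves the vesicle protein VAMP. It lies on chromosome 7 (ENSMUSG00000039361, 90130213 to 90213465, plus strand) and ranged from 142 to 159 CPM in WT and from 151 to 161 CPM in Dp1Tyb, a fold change of 1.04 with a 95% interval from 0.98 to 1.09 (edgeR, adjusted p = 0.554). Over the 8 genes with 2 copies, the upper bound of the fold change was at most 1.24.

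**Figure D4:**
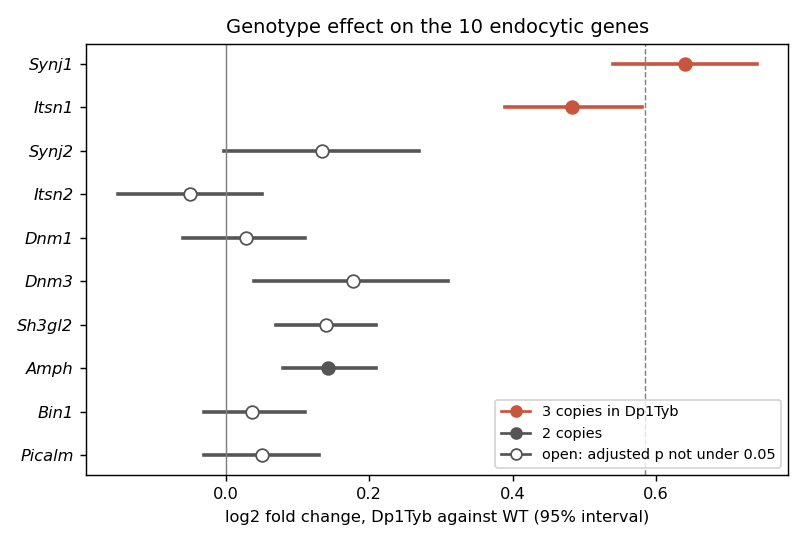
Log2 fold change of each member between Dp1Tyb and WT with its 95% interval (edgeR, 5 libraries per genotype); red genes have 3 copies in Dp1Tyb, filled points have an adjusted p under 0.05, and the dashed line marks 1.5-fold. Synj1 (0.64) and Itsn1 (0.48) lie near the dashed line, and the other 8 genes lie between −0.05 and 0.18.

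Since these proteins act together, the transcript ratio of each duplicated gene to each 2-copy member was computed within every library, which does not depend on scaling between libraries. The ratio of Synj1 to all 8 partners was higher in every Dp1Tyb library than in any WT library, and so was the ratio of Itsn1 to all 8. This was not particular to these partners. Against the 17123 tested genes outside the segment, the ratio of Synj1 was without overlap and higher in Dp1Tyb for 77.6% and that of Itsn1 for 68.1%. Per count of Sh3gl2, Synj1 had 1.85 counts in WT and 2.62 in Dp1Tyb, a difference of 0.50 in the log2 ratio (0.89 ± 0.0743 against 1.39 ± 0.0777, SD, n = 5). Per count of Dnm1, Synj1 went from 0.441 to 0.674 counts (log2 ratio −1.18 ± 0.0387 against −0.57 ± 0.0865). Over the 8 partners the difference in the log2 ratio ranged from 0.46 (Dnm3) to 0.69 (Itsn2) for Synj1 and from 0.30 (Dnm3) to 0.53 (Itsn2) for Itsn1. This order follows from the arithmetic of a ratio, in which the fold change of the partner is taken off that of the duplicated gene.

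**Figure D5:**
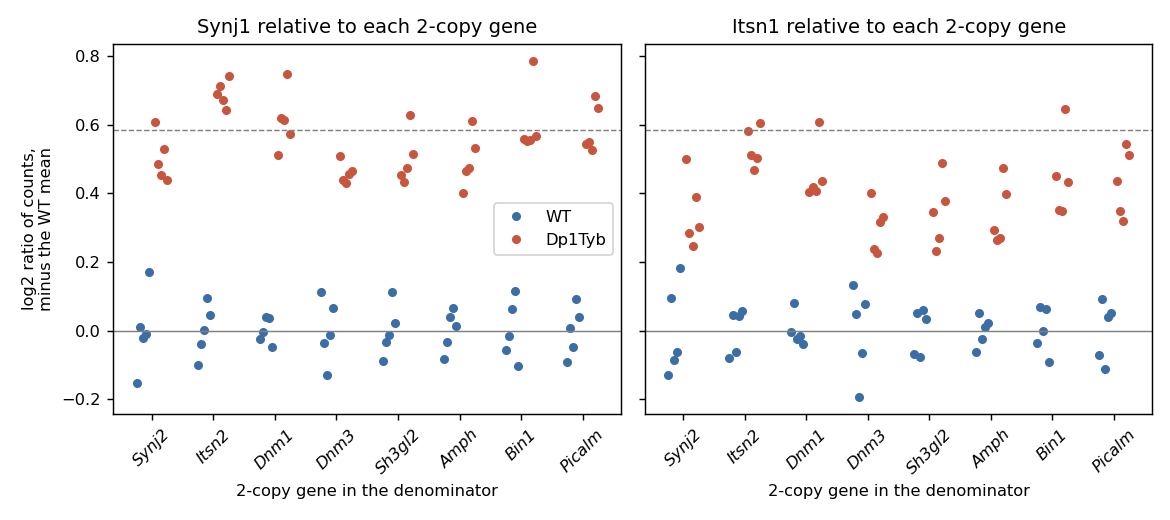
Log2 ratio of Synj1 counts (left) and Itsn1 counts (right) to the counts of each 2-copy member within a library, minus the WT mean of that ratio; points are libraries (blue, WT; red, Dp1Tyb) and the dashed line marks 1.5-fold. In all 16 ratios the red points lie above the blue, with mean differences between 0.46 and 0.69 for Synj1 and between 0.30 and 0.53 for Itsn1.

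The other genes of vesicle endocytosis were examined in 6 lists that hold 73 genes, all of which passed the filter. Of these, 3 were called, all higher in Dp1Tyb, and 2 of the 3 (Dyrk1a and Rcan1) lie in the duplicated segment. Of the 71 genes outside it 1 was called, against 0.479% of all tested genes outside the segment that were called higher. The 71 genes leaned upward, with 48 positive and 23 negative log2 fold changes, a median of 0.0364, and 20 higher and 2 lower at an unadjusted p under 0.05. Among all tested genes outside the segment 48.4% were positive and the median was −0.00493, and 7.52% were higher and 6.45% lower at an unadjusted p under 0.05. Most of the listed genes are abundant, and among the 4558 tested genes outside the segment with a mean of at least 50 CPM, 59.3% were positive, with a median of 0.0195, and 14.6% were higher and 6.30% lower at an unadjusted p under 0.05. Of these abundant genes 0.900% were called higher and 4.63% were higher without overlap. Among the 71 listed genes 8 were higher and 0 lower without overlap.

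In the list of clathrin, its adaptors and uncoating factors, 1 of 16 genes was called higher by edgeR and 0 were lower, and the median log2 fold change was 0.0542. There were 5 genes higher at an unadjusted p under 0.05 and 4 higher without overlap, and DESeq2 called 4 (Ap2a2, Ap2b1, Necap1 and Dnajc6). Of the genes outside the segment with a mean of at least 50 CPM, 14.6% were higher at that p and 4.63% higher without overlap. DESeq2 called 2.16% of all genes with an adjusted p higher. The gene called by edgeR, Dnajc6, codes for auxilin, the neuronal chaperone partner that strips the clathrin coat after synaptojanin has acted. It had 339.6, 362, 368, 365 and 339.8 CPM in WT and 385, 407, 399, 419 and 404 CPM in Dp1Tyb, with no overlap (log2 fold change 0.18 ± 0.0377 SE, edgeR adjusted p = 0.0348). When single libraries were left out in turn, Dnajc6 fell short of the threshold in 8 of 10 fits (edgeR adjusted p from 0.0343 to 0.0977). It passed without WT replicate 3 and without Dp1Tyb replicate 1. Hspa8, the heat shock protein that works with auxilin and the highest of the list by RPKM, had means of 953 CPM in WT and 943 CPM in Dp1Tyb (log2 fold change −0.02 ± 0.0774 SE).

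Among scaffolds and membrane-curving proteins, 2 genes were higher and 1 lower at an unadjusted p under 0.05, and DESeq2 called Eps15. In this list 0 of 16 genes were called by edgeR, and the median was 0.0200. Its most abundant gene per length, Pacsin1, which codes for syndapin, had a log2 fold change of 0.07 ± 0.0340 SE. In the list of fission and actin assembly 0 of 10 were called by edgeR, against 1 by DESeq2 (Actr2), and the median was 0.0864. At an unadjusted p under 0.05, 5 of these genes were higher and 0 lower. Arpc2, a subunit of the actin-branching complex, was at −0.04 ± 0.0538 SE. Of the 10 phosphoinositide enzymes 0 were called by edgeR and DESeq2 called Inpp5f. At an unadjusted p under 0.05, 2 were higher and 0 lower, and 1 was higher without overlap. Pip5k1c, the synaptic kinase whose product synaptojanin degrades, was at 0.00 ± 0.0362 SE, with means of 391 CPM in WT and 392 CPM in Dp1Tyb. Thus the transcript of the opposing kinase had a 95% interval from −0.07 to 0.08 while that of the phosphatase Synj1 was 0.64 higher on the log2 scale.

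Of the 11 genes for vesicle cargo and its sorting 0 were called by edgeR and DESeq2 called Scamp5. At an unadjusted p under 0.05, 4 were higher and 1 lower (Syt2, −0.27). Without overlap 3 were higher and 0 lower, against 4.63% higher of the genes outside the segment with at least 50 CPM. The vesicular glutamate transporter Slc17a7, the highest by RPKM in WT (236), had a log2 fold change of 0.04 ± 0.0566 SE. In Dp1Tyb it was at 242 RPKM, next to the vesicle SNARE Vamp2 at 243. The list of kinases and phosphatase subunits that act on endocytic proteins held both called genes of the duplicated segment. Dyrk1a, a kinase that phosphorylates dynamin, amphiphysin and synaptojanin, was at 82.3 CPM in WT and 125 CPM in Dp1Tyb (0.60 ± 0.0363 SE on the log2 scale, edgeR adjusted p = 7.47e-07). Rcan1, a regulator of calcineurin, the phosphatase that activates these proteins on nerve stimulation, was at 39.4 CPM in WT and 58.2 CPM in Dp1Tyb (0.56 ± 0.0449 SE, edgeR adjusted p = 1.02e-05). The other 8 genes of this list were not called. In the whole list, Dyrk1a and Rcan1 included, 4 genes were higher and 0 lower at an unadjusted p under 0.05. The highest gene of the list by RPKM, the calcineurin subunit Ppp3r1 (232 RPKM in WT), was at 0.13 ± 0.0526 SE (edgeR, adjusted p = 0.289). It shares 14.31% of its exon length with Wdr92 on the same strand. Ppp3ca, the calcineurin catalytic subunit with the most counts of the list, was at 0.00 with means of 1664 CPM in WT and 1668 CPM in Dp1Tyb.

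The list of neuron markers was higher on average in Dp1Tyb, with 6 positive and 2 negative log2 fold changes. The list of hippocampal field markers was not, with a difference of −0.05. Its 8 genes went both ways, 4 positive and 4 negative, and 0 were called. At an unadjusted edgeR p under 0.05, 1 was higher (Neurod6, 0.15) and 3 lower (Prox1 −0.18, Dsp −0.21 and Lct −0.40). Of all tested genes outside the segment 7.52% were higher and 6.45% lower at that p. The mean log2 CPM of 8 neuron markers was 8.78 ± 0.0589 in WT and 8.92 ± 0.0232 in Dp1Tyb (SD, n = 5), higher in 5 of 5 Dp1Tyb libraries than in any WT library (difference 0.14). An exact permutation test over the mice, two-sided, gave p = 0.00794, which is the lowest possible with these numbers, and 0.0714 after adjustment over 9 marker lists. Of the 8 neuron markers 2 were called, the growth-associated Stmn2 (0.21 ± 0.0429 SE, edgeR adjusted p = 0.0307) and the GABA-synthesis gene Gad2 (0.34 ± 0.0737 SE, edgeR adjusted p = 0.0410). Gad1 was at 0.21 ± 0.0521 SE without passing the test (edgeR adjusted p = 0.0765), while Camk2a and Rbfox3 were at −0.02 and −0.05. The summed level of the 8 markers ranged from 7022 to 8174 CPM in WT and from 7690 to 8010 CPM in Dp1Tyb, and none was at 0 in any library. In whole tissue, more neurons and more of these transcripts per neuron cannot be told apart.

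Measured relative to the neuron list within each library, an analysis chosen after the data were seen that lowers every difference by 0.14, the genotypes overlapped in Amph and Sh3gl2. Their differences were 0.01 and 0.00 on the log2 scale (exact two-sided permutation test, p = 0.746 and 0.865), and that of Dnajc6 was 0.05 (exact permutation p = 0.183). Synj1 and Itsn1 remained higher without overlap, by 0.50 and 0.35 (exact permutation p = 0.00794 for each). On this scale Dnm1, Bin1 and Picalm turned to −0.11, −0.10 and −0.09 (exact permutation p = 0.0397, 0.0556 and 0.0238), and Itsn2 was at −0.19 (exact permutation p = 0.0159). These p-values are not adjusted, and the genotypes overlapped in all 4 genes.

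None of the 9 marker lists passed the exact permutation test after adjustment. This could not have been otherwise for 1 list alone, because the lowest possible exact permutation p is 0.00794. The neuron list was at that floor and reached 0.0714 after adjustment. The astrocyte list was 0.09 higher in Dp1Tyb (exact permutation p = 0.0317, adjusted 0.143), with Gfap called (0.26 ± 0.0473 SE, edgeR adjusted p = 0.0167). Of its 6 genes 4 were positive and 2 negative. Aqp4, Slc1a3 and Slc1a2 were at 0.22, 0.11 and 0.04, and Aldh1l1 and Gja1 at −0.01 and −0.08, without being called. The oligodendrocyte, microglia, endothelium and hippocampal field lists differed by 0.06, −0.10, −0.06 and −0.05, and the blood and thalamus lists by −0.41 and −0.07. The choroid plexus list differed by −1.64 on the log2 scale (exact permutation p = 0.214, adjusted 0.386), by −0.99 or −1.03 when Dp1Tyb replicate 1 or 4 was left out and by −2.22 when WT replicate 2 was, with 0 of its 9 genes called or at 0 in any library. Its summed level ranged from 426 to 5417 CPM in WT and from 39.2 to 3855 CPM in Dp1Tyb. Without Dp1Tyb replicates 1 and 4, the 2 libraries lowest in these markers, which were left out after the data were seen, Synj1 and Itsn1 were still called. Amph and Dnajc6 were not (edgeR adjusted p = 0.192 and 0.0893), but with fewer libraries their log2 fold changes were 0.13 and 0.18, against 0.14 and 0.18 with all libraries.

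Dp1Tyb replicate 4 was the highest Dp1Tyb library for 5 of the 10 members (Synj1, Itsn1, Synj2, Itsn2 and Dnm3). Without it the log2 fold changes of Synj1 and Itsn1 were 0.61 and 0.45.

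Lastly, the genes with the pattern most like that of Synj1 and Itsn1 were sought among all tested genes by the Pearson correlation of log2 CPM over the 10 libraries. For Synj1 these were Ttc3 (r = 0.993), Son (r = 0.993) and Vps26c (r = 0.991), and for Itsn1 they were Tiam1 (r = 0.985), Brwd1 (r = 0.985) and Son (r = 0.984). All 5 genes lie in the duplicated segment, so they share the genotype step with Synj1 and Itsn1. When the mean of each genotype was subtracted first, the most alike genes lay on other chromosomes. They were Lrrc7 (r = 0.984), Tenm1 (r = 0.974) and Astn1 (r = 0.972) for Synj1 and Ntrk3 (r = 0.939), Gm29480 (r = 0.921) and Hhat (r = 0.919) for Itsn1. These correlations describe 10 libraries that also share depth and tissue content, and none of these 6 genes was called between the genotypes.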

How the data were processed

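RNA from the whole hippocampus of 10 mice was sequenced as stranded poly(A) libraries, 1 per mouse. The authors trimmed adapters with Trim Galore, mapped reads to GRCm38 with TopHat2 (version 2.0.12), discarded reads with several alignments and counted reads per gene with HTSeq. The strand setting and annotation release are not given in the sources used here, so genes that overlap others are uncertain. The table of raw counts the authors deposited holds integers without any scaling. The deposited normalized table and the authors' own DESeq2 comparison (fold changes and p-values) were not used.

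Genotypes were compared with edgeR 4.0.16 in R 4.3.3 (quasi-likelihood F-test, TMM scaling, filterByExpr, no covariates, Benjamini-Hochberg adjustment over all 17237 tested genes). Samples were grouped by their labels, which name separate mice but no batch or date. CPM used TMM-scaled library sizes, and RPKM the length of all exons in GENCODE M21, which matched 42462 of 43629 genes. Marker levels are means of log2(CPM + 0.1). Alternatives were DESeq2 1.42.0, limma-voom 3.58.1, other scalings and filters, a replicate block and leaving out single libraries. The fits were checked on simulated counts. The members, gene lists and naming rule (all members, called list genes, the gene of highest mean RPKM in each list, 3 neighbours on each side and the 3 most alike genes) were chosen with earlier results of these data known. Vamp2, Ppp3ca and the genes called only by DESeq2 were named after their values were seen.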

Additional observations from a re-analysis of the deposited data

Results flagged for a closer look

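In groups of 5 libraries, the gap of the most extreme library to the nearest other was compared with the range of the group. Of 76 such groups 5 stood out, where chance alone gives about 1 in 20, and several share the same library. In Dp1Tyb replicate 4, Itsn2 was at 6.40 log2 CPM against 6.19 to 6.24 in the other Dp1Tyb libraries. The log2 ratio of Synj1 to Bin1 was 1.86 in the same library against 1.63 to 1.64, and that of Itsn1 to Dnm1 was −2.11 against −2.32 to −2.28. The oligodendrocyte markers were at 7.61 in WT replicate 4 against 7.86 to 7.95 in the other WT libraries, and the microglia markers at 4.42 in Dp1Tyb replicate 3 against 4.67 to 4.76 in the other Dp1Tyb libraries.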

How the results depend on the processing

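Synj1 and Itsn1 were called in all 17 alternative fits, with log2 fold changes from 0.61 to 0.66 and from 0.44 to 0.50. The number of members called was 3, against 2 to 4 over all alternatives: Amph was also lost with DESeq2 size factors and without a filter on low counts (adjusted p = 0.0518 and 0.113). The number of other pathway genes called was 3, against 10 with DESeq2 (among them Ap2a2, Ap2b1, Necap1, Eps15, Actr2, Inpp5f and Scamp5, which were named after their values were seen), and 2 to 4 when 1 library was left out; the cause was not tested. Over all genes 191 were called, against 507 with DESeq2 and 105 to 218 without 1 library. Relative to the neuron list Dnm1, Bin1 and Picalm reversed to −0.11, −0.10 and −0.09, by the shift of 0.14 that this scale applies to all genes.

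With the replicate number as a block, the log2 fold changes of Synj1 and Itsn1 were 0.64 and 0.48, the calls over all genes rose from 191 to 315 and Inpp5f was called. The same-numbered WT and Dp1Tyb libraries did not deviate together in every pair (correlations of 0.194, −0.051, 0.206, −0.076 and 0.266). Of the 10 libraries, 1 correlated best with its own number. The labels state no pairing, and whether the numbers pair the mice cannot be told from these values.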
